A study of Mus musculus with 4 samples.

Results

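The checkpoint and costimulatory receptors are 10 genes, Pdcd1, Ctla4, Lag3, Tigit, Havcr2, Icos, Tnfrsf4, Tnfrsf9, Tnfrsf18 and Cd160, taken by symbol from the 32344 entries of the feature table, and all 10 were listed there. They were followed in CD45+ immune cells sorted from mouse liver in 4 single-cell libraries. One library was labelled GS(+/delta)Hep, read from its name as 1 deleted allele of glutamine synthetase in hepatocytes, one was labelled URI(+/delta)Hep, read likewise for URI, and 2 were wild type (WT). Every group, WT included, had received tamoxifen for 1 week, and each library pooled 5 mice. The recombinase driver, the strain, the age and the way mice were assigned to pools are not given in the sources used here. The deletions are named for hepatocytes, so the lymphocytes measured here are not the cells named as edited.

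T cells and innate lymphocytes carry on their surface receptors that tune a response after the antigen receptor or an activating receptor has fired. Coinhibitory receptors such as PD-1 (Pdcd1), CTLA-4, LAG-3, TIGIT and TIM-3 (Havcr2) dampen it, and their ligands sit on antigen-presenting cells and other tissue cells. ICOS and the tumour necrosis factor receptor family members OX40 (Tnfrsf4), 4-1BB (Tnfrsf9) and GITR (Tnfrsf18) sustain it, and CD160 binds HVEM on T, NKT and NK cells. Regulatory T cells are known for constitutive CTLA-4 and GITR, and the liver is rich in NKT cells and in type 1 innate lymphoid cells (ILC1).

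Ctla4 and Icos are neighbours on the plus strand of chromosome 1 (GRCm38, GENCODE M21 gene bounds chr1:60887000-60915832 and chr1:60977927-61000320), 62.1 kb apart with 0 annotated protein-coding genes between them. Tnfrsf4 (chr4:156013843-156016612) and Tnfrsf18 (chr4:156026164-156028895) lie 9.6 kb apart on the plus strand of chromosome 4, also with 0 protein-coding genes between them. Promoter windows from RefSeq (GRCm38.p6, 250 bases before to 50 after an annotated start) were found for 8 of the 10 genes. Those of the genes that separated regulatory T cells most, with Cd160 as the gene that went the other way, are shown 5′ to 3′ on the gene's strand, with capitals marking matches on either strand to the motifs named after them.
Ctla4 (chr1:60908775-60909074, plus strand): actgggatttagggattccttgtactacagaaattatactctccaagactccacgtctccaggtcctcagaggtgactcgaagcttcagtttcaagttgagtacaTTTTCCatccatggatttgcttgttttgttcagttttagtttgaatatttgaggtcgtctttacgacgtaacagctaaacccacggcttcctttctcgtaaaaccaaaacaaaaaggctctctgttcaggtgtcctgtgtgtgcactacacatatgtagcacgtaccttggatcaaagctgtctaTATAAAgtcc
Tnfrsf4 (chr4:156013445-156013744, plus strand): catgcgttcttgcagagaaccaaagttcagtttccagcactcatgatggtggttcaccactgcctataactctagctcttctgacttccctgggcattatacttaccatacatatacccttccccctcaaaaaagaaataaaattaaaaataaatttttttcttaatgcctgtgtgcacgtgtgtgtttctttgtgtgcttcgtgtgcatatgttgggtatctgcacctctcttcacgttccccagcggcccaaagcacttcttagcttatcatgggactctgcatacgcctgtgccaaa
Tnfrsf9 (chr4:150927749-150928048, plus strand): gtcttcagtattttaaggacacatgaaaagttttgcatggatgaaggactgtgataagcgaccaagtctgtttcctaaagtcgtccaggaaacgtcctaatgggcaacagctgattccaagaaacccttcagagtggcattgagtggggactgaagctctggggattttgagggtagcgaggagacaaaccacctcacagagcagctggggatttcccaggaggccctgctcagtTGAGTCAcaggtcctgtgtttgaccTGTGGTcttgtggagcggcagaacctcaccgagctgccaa
Tigit (chr16:43664135-43664434, minus strand): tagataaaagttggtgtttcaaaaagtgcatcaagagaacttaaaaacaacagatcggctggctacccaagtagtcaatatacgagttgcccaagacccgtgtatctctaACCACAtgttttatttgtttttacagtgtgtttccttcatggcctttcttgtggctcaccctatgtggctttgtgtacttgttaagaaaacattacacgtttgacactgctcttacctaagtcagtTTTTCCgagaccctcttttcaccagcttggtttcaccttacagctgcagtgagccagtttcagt
Cd160 (chr3:96829302-96829601, minus strand): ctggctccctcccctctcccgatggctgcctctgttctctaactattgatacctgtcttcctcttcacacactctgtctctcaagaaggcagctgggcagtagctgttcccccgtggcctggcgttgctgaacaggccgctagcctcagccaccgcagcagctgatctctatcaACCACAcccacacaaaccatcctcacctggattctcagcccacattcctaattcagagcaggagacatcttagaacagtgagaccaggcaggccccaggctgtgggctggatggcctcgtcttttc
Of all 32851 windows of the same length, 7.81% held the AP-1 motif TGANTCA. The NF-kB motif GGANTTTCC was in 1.25% of them. A forkhead motif, GTAAACA, was in 3.65%. Runx was searched as TGTGGT, found in 16.8%. The NFAT core GGAAAA was in 23.4%. A T-box motif, AGGTGTGA, was in 1.28%. The TATA box was searched as TATAAA, found in 13.6%. Of the sequences shown, the Ctla4 window held an NFAT match and a TATA match, the Tnfrsf9 window held an AP-1 match and a Runx match, the Tigit window held a Runx match and an NFAT match, and the Cd160 window held a Runx match. In the Ctla4 window the TATA match began 40 bases after the annotated start, not before it. The Tnfrsf4 window held 0 matches. The forkhead letters were in 0 of the windows of the 8 genes, which says only that these letters are not in these stretches. Of the other windows, those of Tnfrsf18 and of the first Tnfrsf9 start held an NFAT match, that of Havcr2 held an AP-1 and a Runx match, that of the second Cd160 start held a Runx match, and that of Pdcd1 held 0.

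Cells were barcodes with at least 500 unique molecular identifiers (UMIs, the count of captured molecules). They were gated on raw UMIs of lineage genes that are not among the 10: CD4 T cells (3262 in all, 554 to 944 per library), regulatory T cells with a Foxp3 UMI (22 to 74), CD8 T cells (613 to 1452), NKT cells (T cells with Klrb1c, 256 to 534), NK cells with Eomes (343 to 554) and ILC1 (26 to 28). Libraries held 7453 to 9096 such barcodes of 24041049 to 51920505 UMIs in all, and 0 full barcodes were shared between libraries. Within each gate and library the UMIs were summed and are given as CPM, which is the share of that gate's UMIs that fell on a gene, on the usual CPM scale. Values are listed in the order GS, URI, WT replicate 1, WT replicate 2. A CPM depends on the probes of each gene, so levels are compared between gates and not between genes.

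Marker lists separated the regulatory T, NK and ILC1 gates and did not separate the others from each neighbour. The lists of these gates and of CD4 T cells held no gating gene. Cd8a and Cd8b1 of the CD8 T list were gating genes, required in CD8 T cells and excluded from CD4 T and NKT cells. Part of that list's difference between these gates was therefore set by the gating. Cxcr6 of the NKT list was among the genes that could admit a cell to ILC1. The 5 check genes of regulatory T cells (Il2ra, Ikzf2, Ikzf4, Capg, Gpr83) summed to 1243 to 1548 CPM in regulatory T cells against 147 to 189 in CD4 T cells, and 5 of NK cells (Itga2, Klra8, Klra4, Gzma, Prf1) summed to 7810 to 13981 CPM in NK cells against 901 to 2915 in ILC1. In ILC1, 5 check genes (Tnfsf10, Il7r, Rora, Tmem176a, Tmem176b) summed to 1129 to 1707 CPM against 38.9 to 53.4 in NK cells. The CD8 T list (Nkg7, Ccl5, Cd8a, Cd8b1, Ly6c2) summed to 6310 to 9177 CPM in CD8 T cells against 1239 to 1820 in CD4 T cells, but to 18817 to 24262 in NK cells and 11091 to 12483 in ILC1. The NKT list (Zbtb16, Il2rb, Cxcr6, Klrb1b, Ly6c2) was at 5354 to 5951 CPM in NKT cells, 1137 to 1563 in CD4 T cells and 5558 to 6771 in ILC1. The CD4 T list (Cd40lg, Lef1, Tcf7, Trac, Trbc2) overlapped between CD4 T cells (4544 to 6124 CPM) and CD8 T cells (4285 to 5475). The 5 hepatocyte genes summed to 0 to 9.92 CPM over the 6 gates. WT replicate 2 stood apart in 15 immediate early genes such as Fos and Jun, which summed to 27117 CPM in its NKT cells against 8591 to 15336 in the other libraries, and WT replicate 1 in 4 Y-linked genes, which summed to 7.29 CPM in its CD4 T cells against 185 to 497.

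**Figure D1:**
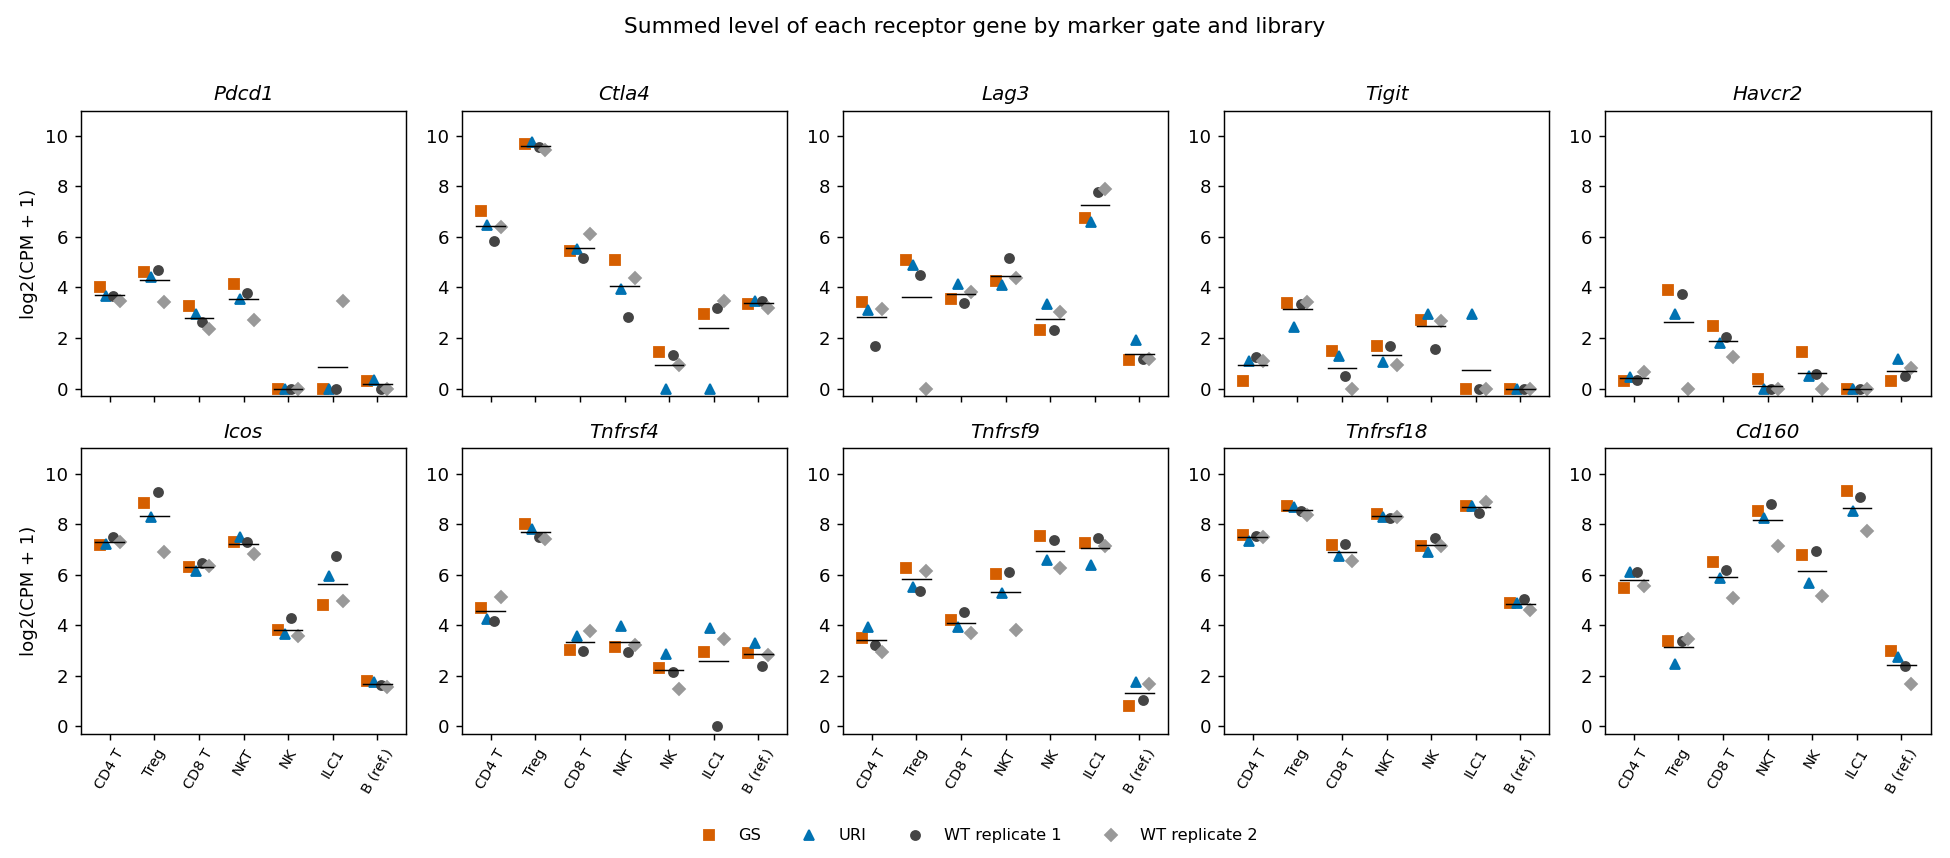
Level of each of the 10 genes as log2(CPM + 1) in 6 gates and in B cells as a reference, 1 point per library, with a bar at the mean of the 4 points. Ctla4 and Tnfrsf4 sat highest in regulatory T cells (Treg), Lag3 in ILC1, and Tnfrsf9 in NK cells and ILC1.

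Regulatory T cells had the highest mean level of the 6 gates for Ctla4, Tnfrsf4, Icos, Pdcd1, Tigit and Havcr2, and Ctla4 and Tnfrsf4 did not overlap with any other gate. Ctla4 was at 819, 873, 763 and 691 CPM in regulatory T cells and at 129, 87.0, 56.4 and 82.5 CPM in CD4 T cells, so the 2 gates did not overlap. Its log2 change was 3.24 (SE 0.16, edgeR quasi-likelihood test with library as a block, Benjamini-Hochberg adjusted p = 2.5e-16, higher in 4 of 4 libraries). A Ctla4 UMI was found in 63.6% to 77.0% of regulatory T cells against 11.2% to 17.0% of CD4 T cells. It was found in 0.903% to 1.45% of B cells, taken as a reference for background. After thinning every cell to 1000 UMIs the shares were 37.0% to 46.8%, 4.29% to 7.71% and 0.216% to 0.598%. Median depths were 3965.5 to 4989 UMIs in regulatory T cells and 2126 to 4246 in B cells.

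Tnfrsf4, whose product OX40 supports survival of activated T cells, was at 253, 223, 178 and 168 CPM in regulatory T cells against 24.4, 18.1, 16.8 and 34.0 CPM in CD4 T cells, a log2 change of 3.27 (SE 0.21, adjusted p = 1.4e-13). The other gates lay at 0 to 14.6 CPM, and B cells at 4.16 to 8.82 CPM. The range of CD8 T, NKT, NK and ILC1 thus took in that of B cells. B cells are a reference and not a floor, since NK cells reached lower, at 1.81 to 6.33 CPM. The Tnfrsf4 change between NKT and NK cells given below compares levels in this range. Its genomic neighbour Tnfrsf18, which encodes GITR, rose less, from 161 to 191 CPM in CD4 T cells to 326 to 421 CPM in regulatory T cells (log2 change 1.15, SE 0.12, adjusted p = 1.5e-08). Icos, which encodes a costimulator of the CD28 family, was at 454, 311, 612 and 118 CPM in regulatory T cells and 145, 146, 179 and 155 CPM in CD4 T cells (log2 change 1.39, SE 0.16, adjusted p = 6.8e-08). It was higher in regulatory T cells in 3 libraries, and WT replicate 2, with 22 regulatory T cells and 12 Icos UMIs, was lower.

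Lag3 and Tigit were also higher, on few molecules. Lag3, which encodes an MHC class II binding inhibitor, was at 32.7, 29.0, 21.5 and 0 CPM in regulatory T cells against 2.24 to 9.63 in CD4 T cells (log2 change 1.84, SE 0.56, adjusted p = 0.027), from 27 UMIs in all. The call was lost without GS (1.999, adjusted p = 0.057) and without URI (1.72, adjusted p = 0.16). Tigit, an inhibitory receptor for the poliovirus receptor, rested on 8 UMIs in regulatory T cells, at 4.47 to 9.87 CPM against 0.214 to 1.40 in CD4 T cells (log2 change 2.98, SE 0.87, adjusted p = 0.020). Its adjusted p was 0.11 without GS, 0.058 without URI and 0.088 without WT replicate 1. Tnfrsf9, the costimulator 4-1BB, was at 40.0 to 74.8 CPM against 6.69 to 14.2 (log2 change 2.30, SE 0.39, adjusted p = 5.4e-05), and in WT replicate 2 all 7 of its UMIs came from 1 cell. Pdcd1 had 9.87 to 24.6 CPM against 10.0 to 15.2, and its log2 change of 0.80 (SE 0.36) did not pass (adjusted p = 0.16). Havcr2 did not pass the low-count filter. It had 10 UMIs in regulatory T cells and 5 in CD4 T cells, a ratio of CPM of 28.2 with a 95% counting interval of 8.78 to 105. That interval takes UMIs as independent, but all 3 regulatory T UMIs in GS came from 1 cell. In WT replicate 1, 1 cell held 3 of 4 UMIs, and WT replicate 2 had 0.

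Of the 9 genes that passed the filter, 7 were therefore higher in regulatory T cells, where 7.14% of all 10041 genes tested were higher, and 1 was lower, where 4.92% were. The median log2 change of the 9 was 1.84, and that of all genes tested was -0.04. The lower one was Cd160, at 4.47 to 9.87 CPM in regulatory T cells against 43.2 to 68.4 CPM in CD4 T cells (log2 change -2.98, SE 0.66, adjusted p = 0.0017). It lost its call (-0.88, adjusted p = 0.37) when cells with a UMI of Zbtb16, the transcription factor of NKT cells, were left out of the CD4 T gate. In that alternative the Tnfrsf9 change was 3.86 (adjusted p = 3.3e-08). Such cells made up 10.3% to 16.6% of the CD4 T gate. Regulatory T cells numbered under the planned minimum of 50 cells in 2 libraries, and this contrast was kept after the cell numbers were seen.

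Within the regulatory T gate, Tnfrsf4, Icos and Tnfrsf9 were higher in each library in the cells that also held Ctla4, and Cd160 was lower. The 5 cycling genes summed to 59.2 to 729 CPM in this gate against 37.4 to 131 in CD4 T cells, and their part was not tested. Cells with a Ctla4 UMI (140 over 4 libraries) had Tnfrsf4 at 328, 255, 221 and 245 CPM, and those without (59) had it at 65.0, 66.9, 49.1 and 0 CPM. Icos was at 604, 327, 734 and 130 CPM in the former against 81.3, 228, 246 and 93.7 CPM in the latter. Tnfrsf9 was at 98.4, 53.6, 49.2 and 101 CPM against 16.3, 0, 12.3 and 0. Cd160 was at 6.56, 0, 4.10 and 0 CPM against 16.3, 26.8, 24.6 and 31.2, on 0 to 2 UMIs per library in either set of cells. Tnfrsf18 was lower in GS (394 against 488 CPM) and higher in the other 3 libraries. Tigit was lower in GS (6.56 against 16.3 CPM), and Pdcd1, Lag3, Tigit and Havcr2 rested on 0 or 1 UMI per library in the cells without Ctla4. These are descriptions without a test. Cells with and without Ctla4 differed in depth as well, with median UMIs of 4695 to 5500 against 3127 to 4638.5, and the part of depth in the difference was not tested. At least 5 of the 10 genes were detected in 4.55% to 15.4% of regulatory T cells, against 0.361% to 0.851% of CD4 T cells and 0% of B cells.

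**Figure D2:**
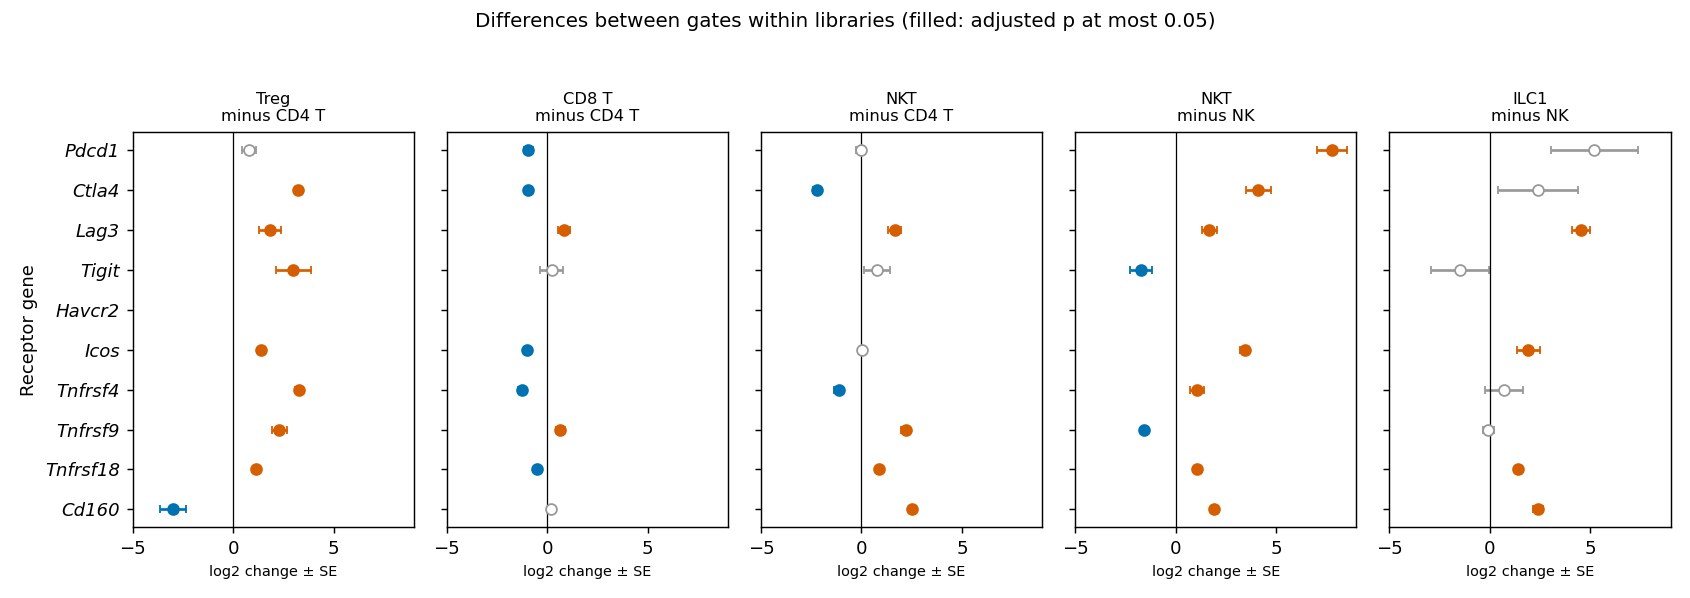
Log2 change with SE of each gene in 5 contrasts between gates, with library as a block. Filled points passed an adjusted p of 0.05, orange higher and blue lower in the first gate, open points did not pass, and a gap marks a gene under the low-count filter. Ctla4 is to the right in regulatory T minus CD4 T and to the left in NKT minus CD4 T.

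Of the 9 tested genes, 5 were lower in CD8 T than in CD4 T cells (Icos, Tnfrsf4, Tnfrsf18, Pdcd1 and Ctla4) and 2 were higher (Lag3 and Tnfrsf9). Icos was at 69.2 to 87.6 CPM in CD8 T cells against 145 to 179 in CD4 T cells (log2 change -0.99, SE 0.12, adjusted p = 3.3e-08), without overlap. Tnfrsf4 fell by 1.28 (SE 0.20, adjusted p = 5.4e-06) and Tnfrsf18 fell by 0.52 (SE 0.09, adjusted p = 1.5e-05), while Pdcd1, at 4.09 to 8.61 CPM in CD8 T cells, fell by 0.94 (SE 0.22, adjusted p = 0.0012). Ctla4, at 42.2, 44.6, 34.8 and 69.1 CPM, fell by 0.97 (SE 0.15, adjusted p = 5.2e-06), a call that DESeq2 did not make (-0.86, adjusted p = 0.14).

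Lag3 was at 10.6, 16.7, 9.59 and 13.2 CPM in CD8 T cells against 9.63, 7.55, 2.24 and 7.80 in CD4 T cells (log2 change 0.84, SE 0.31, adjusted p = 0.039). It passed in 7 of 13 alternatives and failed, among others, without URI (0.69, adjusted p = 0.21), without WT replicate 1 (0.69, adjusted p = 0.064), without WT replicate 2 (0.86, adjusted p = 0.077) and without Zbtb16 cells in the CD4 T gate (0.80, adjusted p = 0.080). Tnfrsf9 was 0.65 higher (SE 0.22, adjusted p = 0.027) and passed in 9 of 13 alternatives. It failed without GS (0.60, adjusted p = 0.13), without WT replicate 1 (0.41, adjusted p = 0.28), with no library block (0.69, adjusted p = 0.30) and by DESeq2 (0.66, adjusted p = 0.087). Without Zbtb16 cells in the CD4 T gate it was 2.20 higher (SE 0.28, adjusted p = 1.4e-07). Altogether 2 of the 9 tested genes were higher and 5 lower, against 11.9% and 14% of all genes, with a median log2 change of -0.52 against 0.00 over all genes tested. Cd160 (0.18) and Tigit (0.21) did not pass, but without Zbtb16 cells in the CD4 T gate Cd160 was 2.27 higher in CD8 T cells (SE 0.14, adjusted p = 9.9e-15). Havcr2, under the filter, had 70 UMIs in CD8 T cells and 5 in CD4 T cells, a CPM ratio of 9.64 (95% counting interval 3.94 to 30.6). The interval takes UMIs as independent, but the 28, 17, 22 and 3 UMIs by library came from 14, 9, 13 and 3 CD8 T cells. Their CPM was 4.63, 2.49, 3.06 and 1.36. Barcodes under 100 UMIs, taken as free RNA, had 4.17, 1.62, 6.04 and 5.75 CPM.

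Rare CD8 T cells with a Pdcd1 UMI, 96 of 4243, had as a group higher levels of Lag3, Cd160 and Ctla4. Over the 4 libraries together Lag3 was found in 30.2% of them against 2.36% of those without Pdcd1. Ctla4 was found in 26.0% against 10.4%, Cd160 in 37.5% against 15.8% and Havcr2 in 10.4% against 0.699%. How many of the 96 held several of these genes at once was not counted. They numbered 32, 29, 30 and 5 by library. Lag3 was at 94.7, 249, 61.5 and 81.1 CPM in them against 7.22, 8.35, 8.02 and 12.4 CPM in the CD8 T cells without a Pdcd1 UMI, higher in 4 of 4 libraries and without overlap. Havcr2, whose product TIM-3 marks chronically stimulated T cells, was at 47.4, 42.1, 9.47 and 0 CPM against 1.06 to 2.92 CPM, higher in 3 of 4. Cd160 was at 469, 181, 232 and 81.1 CPM against 31.7 to 74.5, and Ctla4 at 224, 92.7, 99.4 and 81.1 against 32.8 to 68.9, both without overlap. In WT replicate 2 the 81.1 CPM of each of Lag3, Cd160 and Ctla4 was 2 UMIs, under the floor of 3 counts. Tnfrsf9 was at 224, 59.0, 251 and 0 CPM against 8.95 to 14.9, but its 119 UMIs came from 14 cells. Icos was at 51.7, 75.8, 133 and 324 CPM against 68.9 to 86.2, lower in 1 library and higher in 3. Tnfrsf18, Tnfrsf4 and Tigit overlapped between the cells: over the 4 libraries together Tnfrsf18 was at 112 CPM in cells with Pdcd1 and at 128 CPM in those without. Lag3 and Ctla4 were also higher in CD4 T cells with a Pdcd1 UMI, each in the same library. There Lag3 was at 43.5, 13.5, 21.4 and 55.2 CPM against 1.18 to 7.12, and Ctla4 at 255, 162, 102 and 110 against 53.8 to 119. The rise was not confined to coinhibitory genes, as Icos, Tnfrsf18, Tnfrsf4 and Cd160 were also higher in each library. Icos was at 245, 260, 654 and 313 CPM against 137 to 153. Tnfrsf9 was higher in GS and WT replicate 1 and at 0 CPM in URI and WT replicate 2. In NKT cells, over the 4 libraries together, Lag3 was at 55.4 against 18.4 CPM and Ctla4 at 50.4 against 17.5. Icos was at 250 against 155 CPM there, and Tnfrsf9 at 121 against 44.6. Lag3 in NKT cells of WT replicate 2 was at 0 against 20.1 CPM. Median UMIs of CD8 T cells with Pdcd1 were 5049.5, 6904, 5420.5 and 4606, against 5244, 6338, 4664 and 3465.5 without. The part of depth was not tested. Cells of a library are not replicates, so these are descriptions without a test.

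**Figure D3:**
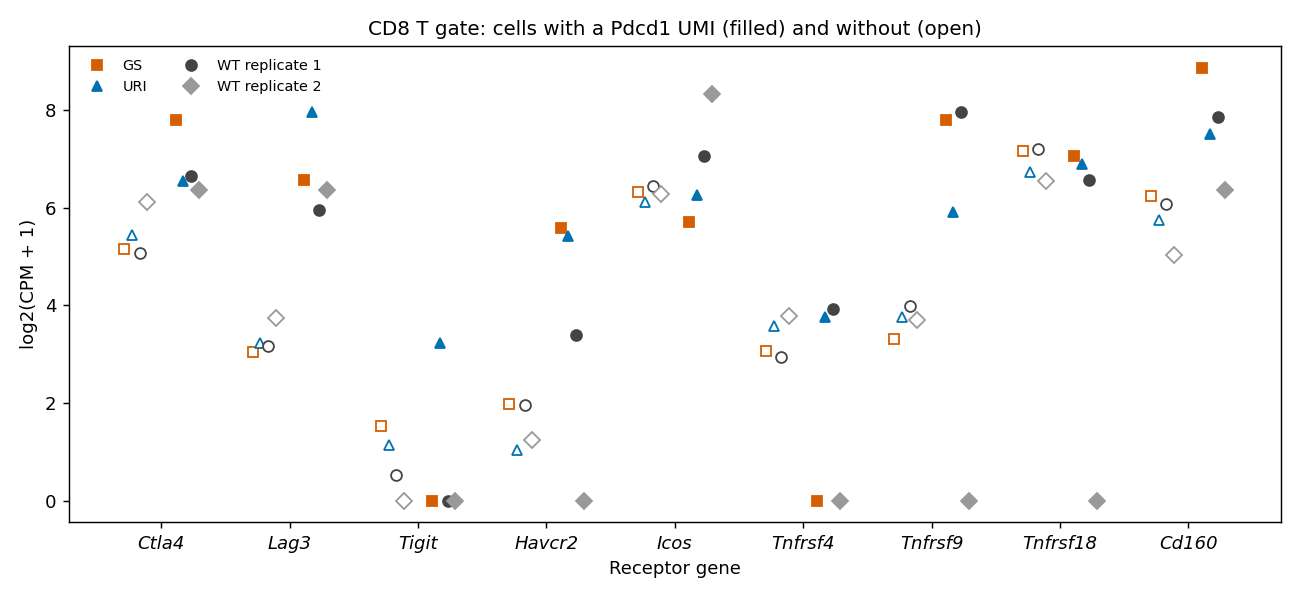
Level as log2(CPM + 1) of the other 9 genes in CD8 T cells with a Pdcd1 UMI (filled, 96 cells) and without (open, 4147 cells), 1 point per library. Lag3, Cd160 and Ctla4 were higher in the cells with Pdcd1 in 4 of 4 libraries. WT replicate 2 rests on 5 such cells, with 2 UMIs of each of these genes.

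NKT cells were high in Cd160 and Tnfrsf9 and low in Ctla4 and Tnfrsf4 relative to CD4 T cells. Cd160 was at 368, 302, 443 and 139 CPM in NKT cells, above 43.2 to 68.4 in CD4 T cells (log2 change 2.51, SE 0.14, adjusted p = 6.0e-16), and at 4.62 when Zbtb16 cells were left out of the CD4 T gate. Tnfrsf9 was at 64.7, 37.3, 68.7 and 13.02 CPM (log2 change 2.20, SE 0.21, adjusted p = 1.1e-10), and at 3.75 in that alternative. Tnfrsf18 was at 303 to 340 CPM (log2 change 0.87, SE 0.09, adjusted p = 2.9e-10) and Lag3 at 16.2 to 34.9 CPM (log2 change 1.65, SE 0.32, adjusted p = 6.6e-05). Ctla4, at 33.1, 14.4, 6.10 and 19.5 CPM, fell by 2.21 (SE 0.20, adjusted p = 6.0e-11), and Tnfrsf4 fell by 1.13 (SE 0.23, adjusted p = 1.3e-04). Of 9 genes tested 4 were higher and 2 lower, in a contrast that called 20.8% and 19.2% of all genes, with a median of 0.79 against 0.01. Pdcd1 (-0.03, SE 0.22) and Icos (0.05, SE 0.12), at 5.58 to 16.6 and 112 to 181 CPM in NKT cells, did not differ beyond their error.

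Against NK cells, which share the Klrb1c receptor but not the T cell receptor, NKT cells differed in 9 of the 9 genes that passed the filter. Pdcd1 had 0 UMIs in the 4 NK libraries, and NKT cells were at least 30.6-fold higher, with the floor of 3 counts taken over the group. Ctla4 was at 0 to 1.69 CPM in NK cells, below the 8.13 to 10.2 CPM of B cells, and the log2 change was 4.12 (SE 0.62, adjusted p = 1.1e-06). Icos was at 10.9 to 18.5 CPM in NK cells (log2 change 3.43, SE 0.20, adjusted p = 6.5e-16). Cd160 was 1.90 higher in NKT cells (SE 0.15, adjusted p = 1.8e-12), Lag3 was 1.69 higher (SE 0.38, adjusted p = 3.6e-04), Tnfrsf18 was 1.06 higher (SE 0.09) and Tnfrsf4 was 1.09 higher (SE 0.35, adjusted p = 0.010), the last not called without URI (adjusted p = 0.055).

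Tnfrsf9 and Tigit went the other way. Tnfrsf9 was at 182, 94.2, 163 and 76.9 CPM in NK cells, above the NKT value of the same library in 4 of 4 (log2 change of NKT minus NK -1.55, SE 0.16, adjusted p = 4.5e-10). A Tnfrsf9 UMI was found in 14.3% to 25.7% of NK cells against 5.08% to 15.5% of NKT cells and 0.279% to 0.602% of B cells, and after thinning in 5.94% to 10.9%, 1.30% to 5.08% and 0.0597% to 0.236%. Tigit was at 5.64, 6.73, 1.99 and 5.43 CPM in NK cells against 2.19, 1.06, 2.22 and 0.930 in NKT cells, higher in 3 of 4 libraries (log2 change -1.73, SE 0.54, adjusted p = 0.0078), and the call was lost without URI (-1.22, adjusted p = 0.18). This contrast called 23.9% of all genes higher and 24.8% lower, and the median over the 9 genes was 1.69 against -0.01.

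ILC1, the liver-resident innate counterpart of NK cells, were the gate with the highest Lag3. It was at 107, 95.6, 221 and 238 CPM against 3.95, 9.10, 3.99 and 7.24 CPM in NK cells, without overlap (log2 change 4.55, SE 0.45, adjusted p = 1.7e-09). A Lag3 UMI was found in 32.1% to 46.2% of ILC1 against 1.44% to 3.89% of NK cells and 0.234% to 0.542% of B cells, and after thinning in 8.95% to 17.1%, 0.282% to 0.777% and 0.0517% to 0.176%. Cd160 was at 635, 369, 532 and 208 CPM in ILC1 against 109, 49.5, 123 and 34.4 CPM in NK cells (log2 change 2.39, SE 0.25, adjusted p = 9.6e-09), higher in 4 of 4 libraries. Tnfrsf18 was at 421, 417, 344 and 466 CPM against 118 to 173 (log2 change 1.41, SE 0.16, adjusted p = 3.6e-08). Icos was 1.93 higher (SE 0.57, adjusted p = 0.017) on 29 UMIs, and its call was lost without URI (1.77, adjusted p = 0.082) and without WT replicate 1 (1.66, adjusted p = 0.11).

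Tnfrsf9 did not separate ILC1 from NK cells, at 154, 82.0, 172 and 139 CPM and a log2 change of -0.06 (SE 0.28, adjusted p = 0.92). Its CPM ratio over the 4 libraries was 1.03 with a 95% counting interval of 0.794 to 1.31. The 4 higher genes of 9 tested stood beside 6.26% of all genes called higher, and the 0 lower genes, by edgeR, beside 7.46%. Pdcd1, the only other gene with an unadjusted edgeR p under 0.05 (0.024), had 1 UMI in ILC1 and 0 in NK cells. DESeq2 made 5 calls in all, and its share of calls over all genes is not given here. The medians were 1.93 over the 9 and -0.09 over all genes. ILC1 numbered under the planned 50 cells in every library and were kept after that was seen.

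Ordered by mean CPM over the 4 libraries, neighbours mostly overlapped. Ctla4 ran from regulatory T through CD4 T, CD8 T, NKT and ILC1 to NK cells, with ranges that did not overlap between regulatory T and CD4 T or between CD8 T and NKT. Lag3 ran from ILC1 through NKT, regulatory T, CD8 T and CD4 T to NK cells, and only ILC1 was separate from its neighbour. Cd160 ran from ILC1 through NKT, NK, CD8 T and CD4 T to regulatory T, with gaps after NKT and after CD4 T. Tnfrsf9 ran from ILC1 and NK, which overlapped, to regulatory T, NKT, CD8 T and CD4 T, with a gap after NK. Icos ran from regulatory T through CD4 T, NKT, CD8 T and ILC1 to NK cells, with gaps after NKT and after ILC1. Tnfrsf4 had gaps after regulatory T and after CD4 T, and Tnfrsf18, from ILC1 through regulatory T, NKT, CD4 T and NK to CD8 T, had a gap after NKT. For Pdcd1, Tigit and Havcr2 each pair of neighbours overlapped.

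Cxcr6 encodes a chemokine receptor known from lymphocytes that stay in the liver. Among CD4 T cells with a Cxcr6 UMI (110 to 185 per library) the levels are given as descriptions without a test. Cd160 was at 135, 283, 232 and 138 CPM in them, where the whole CD4 T gate, which contains them, was at 43.2, 68.4, 67.9 and 45.7. Tnfrsf9 was at 28.1, 42.7, 30.3 and 10.6 CPM, with 34 of its 50 UMIs in the URI library in 1 cell. Pdcd1 was at 23.6, 26.4, 25.5 and 14.8 CPM, above the whole gate's 10.0 to 15.2 CPM in the same library in 4 of 4.

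Zbtb16 UMIs were found in 50.8% to 63.6% of these cells, against 58.8% to 81.6% of the NKT gate. Without the cells that held Zbtb16, Tnfrsf9 was at 4.01, 2.72, 0 and 0 CPM, 3 UMIs in all, and Cd160 at 48.1, 46.2, 33.7 and 36.4 CPM, both below the level with those cells in 4 of 4 libraries. Pdcd1 was then at 34.1, 48.9, 30.9 and 24.2 CPM, above it in 4 of 4. Ctla4 was at 335, 136, 135 and 236 CPM, where with the Zbtb16 cells it had been at 164, 63.1, 66.7 and 99.5. Icos overlapped, at 260, 225, 346 and 186 CPM with these cells and 275, 242, 318 and 309 without. This split was added after the data were seen. The CD4 T gate excluded cells with a Foxp3 UMI, which does not exclude regulatory T cells whose Foxp3 was not captured. In CD4 T cells with Cxcr6 the regulatory T check genes summed to 390 CPM in GS and 271 in URI. The whole CD4 T gate had 189 and 147 CPM, and the NKT gate had 395 and 412. The sums in cells with Cxcr6 include the cells that held Zbtb16, which the Ctla4 level above leaves out. The part of regulatory T cells without a captured Foxp3 UMI in the Ctla4 level was not tested.

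**Figure D4:**
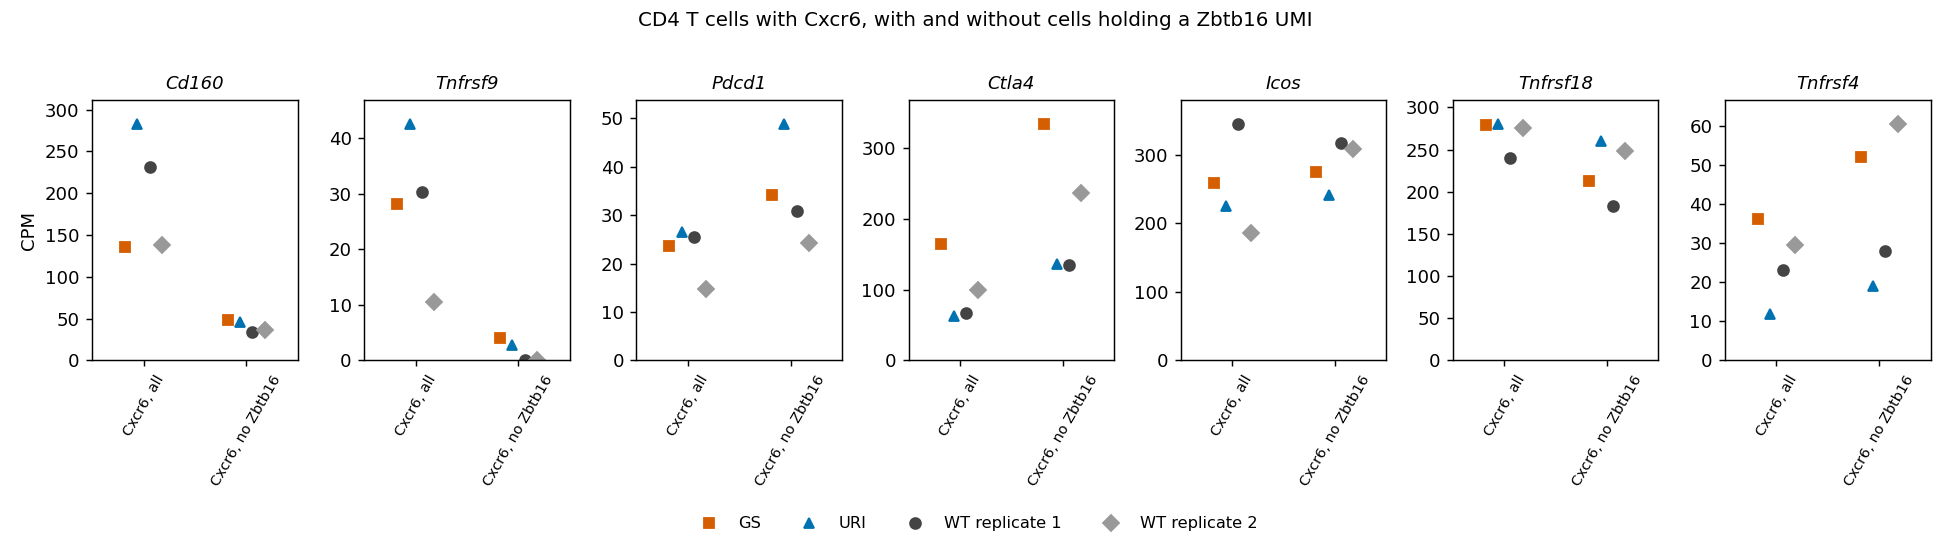
CPM of 7 genes in CD4 T cells with a Cxcr6 UMI and in those with Cxcr6 and no Zbtb16 UMI, 1 point per library, on a separate linear axis per gene. Cd160 and Tnfrsf9 were lower and Pdcd1 and Ctla4 higher once Zbtb16 cells were left out.

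Among CD8 T cells with a Cxcr6 UMI (83 to 452 per library) Pdcd1 was at 15.6, 11.5, 9.41 and 23.8 CPM, where the whole CD8 T gate was at 8.61, 6.75, 5.28 and 4.09, and Lag3 was at 14.1, 22.9, 12.2 and 50.6 CPM, where the whole gate was at 10.6, 16.7, 9.59 and 13.2. Both were above the whole gate in 4 of 4 libraries. Cd160 was at 146, 103, 93.8 and 68.5 CPM and Havcr2 at 6.05, 4.69, 3.92 and 2.98 CPM, also above it in 4 of 4. The Havcr2 value of WT replicate 2 was 1 UMI, under the floor of 3 counts. Ctla4, at 48.9, 29.7, 25.9 and 50.6 CPM, was above the whole gate in GS and below it in the other libraries. These values carry no test.

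No receptor was called between genotypes. GS and URI were each compared with the same 2 WT libraries in the 4 gates of at least 50 cells, with 1 residual degree of freedom, 33 member tests each and the single library assumed to vary like WT. By edgeR 0 members were called for GS, where 0% of 40485 gene-by-gate tests were called, and 0 for URI, where 0.00741% were. DESeq2 also called 0. At an unadjusted p under 0.05 edgeR had 141 of 40485 tests for GS and 144 for URI. Of the 33 member tests it had 2 for GS and 0 for URI. Both of the 2 were Ctla4. In CD4 T cells it was at 129 CPM in GS (95% counting interval 119 to 140), 87.0 in URI and 56.4 and 82.5 in WT (GS minus WT 0.87, SE 0.37, unadjusted p = 0.033, adjusted p near 0.9998). In NKT cells it was at 33.1 CPM in GS, 14.4 in URI and 6.10 and 19.5 in WT (1.36, SE 0.65, unadjusted p = 0.039). In CD8 T cells, at 42.2 CPM, GS lay between the WT values of 34.8 and 69.1.

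Several receptors differed widely between the 2 WT libraries. In NKT cells the first WT library had Cd160 at 443 CPM and the second at 139, with GS (368) and URI (302) between them, and in NK cells it was at 123 and 34.4 with GS (109) and URI (49.5) between. Tnfrsf9 in NKT cells was at 68.7 and 13.02 CPM, again with GS (64.7) and URI (37.3) between. Ctla4 in NKT cells was at 6.10 and 19.5 CPM (11 and 21 UMIs), and Lag3 in CD4 T cells at 2.24 and 7.80 CPM (8 and 14 UMIs), both higher in the second. Immediate early sums were highest in WT replicate 2, and Y-linked sums were lowest in WT replicate 1; their part in these values was not tested. Icos was steadier, at 145, 146, 179 and 155 CPM in CD4 T cells.

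**Figure D5:**
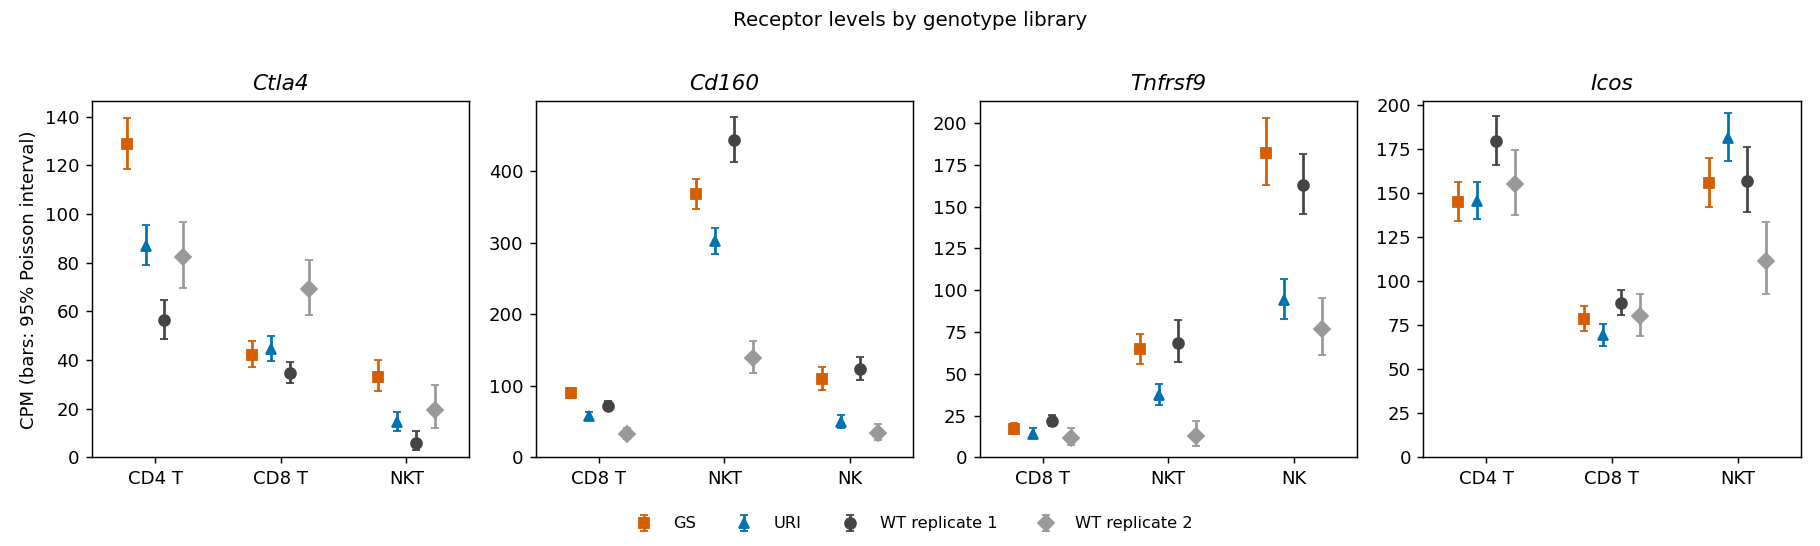
CPM of Ctla4, Cd160, Tnfrsf9 and Icos in 3 gates each, 1 point per library with its exact 95% Poisson interval, which covers counting error only. Ctla4 in CD4 T cells was highest in GS, and Cd160 and Tnfrsf9 in NKT cells were higher in WT replicate 1 than in WT replicate 2.

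Other genes of these pathways were followed as 4 lists, to be read against the share of all genes called higher and lower: 7.14% and 4.92% in regulatory T minus CD4 T, 11.9% and 14% in CD8 T minus CD4 T, 20.8% and 19.2% in NKT minus CD4 T, 23.9% and 24.8% in NKT minus NK, and 6.26% and 7.46% in ILC1 minus NK. Of 18 other costimulatory and coinhibitory receptors, 17 passed the filter, and 4 were higher and 2 lower in regulatory T than in CD4 T cells, 5 and 5 in CD8 T than in CD4 T cells, 6 and 8 in NKT than in CD4 T cells, 10 and 5 in NKT than in NK cells, and 5 and 2 in ILC1 than in NK cells. Cd40lg, the helper ligand of CD4 T cells, fell by 5.23 in CD8 T cells (SE 0.11). Cd5, a negative regulator of T cell receptor signals, was 6.39 higher (SE 0.16), the death-domain receptor gene Tnfrsf25 6.11 higher (SE 0.30) and Cd226, which competes with Tigit for ligands, 2.76 higher (SE 0.10) in NKT than in NK cells. In the first of these contrasts the median of the list was -0.02, and in NKT minus NK 0.74.

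Of 12 regulators of activated and exhausted T cells 6 were higher and 1 lower in regulatory T cells (7.14% and 4.92% of all genes, list median 0.57), 2 and 7 in CD8 T cells (11.9% and 14%, median -0.32), and 6 and 4 in NKT against CD4 T cells (20.8% and 19.2%, median 0.30). Ikzf2, the Helios gene, was 4.61 higher in regulatory T than in CD4 T cells (SE 0.16), and was also among the check genes of that gate. Maf fell by 3.82 in CD8 T cells (SE 0.15), Tcf7, a factor of naive and memory T cells, fell by 2.53 in NKT against CD4 T cells (SE 0.11), and Nr4a2, induced by antigen receptor signals, fell by 2.62 in NKT against NK cells (SE 0.12).

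Of 13 ligands 7 passed the filter. In NKT against NK cells 4 were higher (23.9% of all genes) and 0 lower (24.8%) by edgeR. The same 4 were the only ones at an unadjusted p under 0.05. Pvr, the poliovirus receptor bound by TIGIT and CD226, was 3.01 higher there (SE 0.19), Icosl, the ligand of ICOS, 1.74 higher in NKT than in CD4 T cells (SE 0.15), and Cd86 1.49 higher in CD8 T than in CD4 T cells (SE 0.18). Of 10 signalling partners 3 were higher and 1 lower in regulatory T cells (7.14% and 4.92% of all genes) and 1 and 4 in NKT against NK cells (23.9% and 24.8%). Sh2d1a, the adaptor of SLAM receptors, fell by 4.43 in ILC1 against NK cells (SE 0.45), and Pik3r1 (-0.97, SE 0.09) and Inpp5d (-0.59, SE 0.07) were lower in NKT than in NK cells. Traf5, an adaptor of tumour necrosis factor receptors, fell by 0.84 in NKT against CD4 T cells (SE 0.10).

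Among 7608 genes of at least 20 CPM on average, those most like each receptor over the 24 sums, by Pearson r of log2(CPM + 1), are given as descriptions, since gates of a library share its depth. Trat1 (0.95) and Slamf1 (0.93) were most like Pdcd1, Cdc42se2 (0.95) and Rhoh (0.93) most like Ctla4, and Snx20 (0.94) and Leprotl1 (0.93) most like Icos. Tnfrsf4 was closest to Capg (0.93) and Mif4gd (0.91), Tnfrsf9 to Pglyrp1 (0.92) and Fuca2 (0.91), Tnfrsf18 to Fam129a (0.93) and Rab8b (0.89), and Cd160 to Zfp652 (0.92) and Abi3 (0.91). For Lag3 the closest were Arl15 (0.86) and Lilrb4a (0.86), for Tigit Fmnl1 (0.81) and Ubash3b (0.79), and for Havcr2 Glipr2 (0.79) and Agpat4 (0.76). Among the receptors themselves Pdcd1, Ctla4 and Icos were alike, with r of 0.82 between Pdcd1 and Ctla4, 0.83 between Pdcd1 and Icos and 0.81 between Ctla4 and Icos, while Cd160 ran against Ctla4 (-0.69).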

How the data were processed

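The deposited matrices of 4 libraries hold raw UMI counts per probe-defined gene and barcode, made by the authors with Cell Ranger 8.0.0 on mm10, per the submitters' processing notes; 59 deprecated-probe entries that name no gene (0.0651% of gated UMIs) stayed out of library sizes and tests. Library totals were 24041049 to 51920505 UMIs. Barcodes of at least 500 UMIs were gated on lineage genes, with at least 2 UMIs of Cd3d, Cd3e and Cd3g for T cells and 0 for NK cells and ILC1, and summed per gate and library. Sums were tested with edgeR 4.0.16 (R 4.3.3; quasi-likelihood, TMM, filterByExpr, Benjamini-Hochberg adjusted p of 0.05), with library as a block in contrasts between gates. The deviations of the 4 gates of a library correlated (24 pairs, r 0.284 to 0.816, median 0.579). Gates of a library share its pool of mice and its processing, whose parts cannot be told apart here. Genotype was fitted per gate. Nothing says the 2 WT pools came from separate experiments. In the genotype fits p-values measure the spread between these 2 libraries. In contrasts between gates, where library is a block, they measure how the gate differences vary over the 4 libraries. DESeq2 1.42.0, RLE scaling, no filter, stricter gates, 1000 UMIs, doublet and gene limits (the top 5% of Scrublet scores removed) and leaving out each library were alternatives, and doublets otherwise stayed in (0.881% to 1.17% of gated cells). Intervals are exact Poisson or Clopper-Pearson at 95% and, like the floor of 3 counts, cover counting error only. Python 3.11.15, numpy 2.4.6, scipy 1.17.1, pandas 2.3.3 and scanpy 1.11.5 were used, and the fits were tested on simulated data. The 10 genes and the lists were chosen with earlier results of these data known. A planned comparison of subsets of T cells is not reported here. Besides the 10, up to 4 genes of smallest adjusted p per list and the 2 genes most like each receptor are named. Regulatory T cells and ILC1 fell under the planned 50 cells and were tested with a minimum of 20. First 16 bases of barcodes were shared by 1480 to 2076 cells per pair of libraries, and full barcodes by 0.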

Additional observations from a re-analysis of the deposited data

How the results depend on the processing

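The 34 receptor changes called between gates were recomputed under each alternative that could give them; 382 of these values kept their direction and side of the threshold, 21 lost their call and 0 reversed. Changes not called were not tallied; of these, Cd160 in CD8 T minus CD4 T went from 0.18 to 2.27 (adjusted p = 9.9e-15) without Zbtb16 cells in the CD4 T gate. Receptors called in CD8 T minus CD4 T numbered 4 by DESeq2 against 7, and 5 with no replicate block. Leaving out each library gave 6 to 9 called receptors in regulatory T minus CD4 T, 5 to 7 in CD8 T minus CD4 T, 6 each time in NKT minus CD4 T, 7 to 9 in NKT minus NK and 3 to 4 in ILC1 minus NK. All genes called with no replicate block numbered 572 against 1211 in regulatory T minus CD4 T, 869 against 2598 in CD8 T minus CD4 T, 1871 against 4017 in NKT minus CD4 T and 2939 against 4897 in NKT minus NK. DESeq2 called 0 against 3 for URI, as did the gene and doublet limits. Regulatory T minus CD4 T had 700 without URI and 727 without WT replicate 1. The cause was not tested. Stricter gates left too few regulatory T cells and ILC1 for a value. No paired analysis was possible because GS and URI share only replicate number 1 with WT, and without 1 WT library the genotype fit has no residual degrees of freedom. Low counts limit Tigit and Havcr2 most.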
